A study of Mus musculus with 2 samples.

Results

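The 9 genes described here encode subunits of the transcription factor NF-kB and proteins that NF-kB itself switches on, several of which restrain its activity. They were chosen by symbol (Nfkbia, Nfkbiz, Nfkbid, Tnfaip3, Nfkb1, Nfkb2, Rel, Relb and Bcl3), and all 9 were found among the 27933 gene symbols of the count tables. Earlier results of these data were known when the genes were chosen. The series consists of 2 droplet single-cell libraries of sorted microglia, which are the macrophages that live in the brain. The cells came from mice of the C57Bl6 strain with the genotype given as CX3CR1, fed for 4 weeks with cuprizone, a copper chelator that damages oligodendrocytes and demyelinates the corpus callosum. The medial library and the lateral library, 1 each, came from the named side of that tract, and both groups share strain, genotype and treatment. Which CX3CR1 allele the mice carried, their age, how many gave each library and the sort gate are unstated in the sources used here, and no untreated library was analysed here. Since each region has a single library, the regions were compared without any test. Every interval below is an exact 95% interval that covers counting error only, and cells of 1 library are not replicates.

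NF-kB acts as a dimer of proteins of the Rel family, and in resting cells the dimers are held in the cytoplasm by inhibitors called IkB. Signals from Toll-like, interleukin 1 and tumour necrosis factor receptors activate the IkB kinase, IkB is destroyed, and the freed dimers enter the nucleus and drive cytokine, chemokine and survival genes. Among the first genes induced are inhibitors of the same pathway, so the response in macrophages and microglia is normally brief and repeated activation is damped.

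A cell here is a barcode with at least 2400 unique molecular identifiers (UMIs, each standing for 1 captured RNA molecule) and at most 10% of UMIs from mitochondrial genes. There were 2131 medial cells with a median of 10732 UMIs and 2308 lateral cells with a median of 9694 UMIs, out of 28660496 and 27955414 UMIs per library. The 7 microglial markers summed to 76.1 UMIs per 10000 in medial and 76.8 in lateral cells, and none of the 7 was at 0. Summed markers of monocytes, border macrophages, neutrophils, dendritic cells, lymphocytes, endothelium, glia, neurons and red cells reached at most 1.14 per 10000, in the endothelial list, in which Ly6c1 was at 0 in both libraries. Single cells lay above this, up to 27.9 per 10000 of border macrophage markers in a medial cell and 17.4 of neuronal markers in a lateral cell, and they were kept. The libraries shared 7 cell barcodes, against 6.67 if barcodes were drawn independently.

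The promoters of these genes are shown because NF-kB controls several of them. Nfkbia, Nfkbiz, Nfkbid and Tnfaip3 varied together across the cells described below, and a link between that and the promoters was not tested. Promoter windows from RefSeq (GRCm38.p6), 250 bases before to 50 bases after a start site, were found by symbol for 6 of the 9 genes, the others being Nfkbiz, Nfkb1 and Relb. The kappaB consensus, the 10-base motif bound by NF-kB dimers, was searched on both strands, and overlapping matches were merged. A match was present in 8 of the 11 windows of these genes (72.7%), against 8.46% of 32851 windows of all genes. Every one of the 6 genes had a match in at least 1 window, against 9.55% of 27025 genes. Of 27 NF-kB target genes with a window, from the list used further below, 13 had a match. A gene with more windows has more chances of a match, which was not adjusted for. In the sequences below, each 5′ to 3′ on the strand of its gene, the capitals mark the letters that match. Where the match lies in annotated exon sequence, as for Nfkb2 and Bcl3, 30 bases are shown. The last Nfkb2 match lies in a pair of overlapping windows, and both were counted among the 8. A match describes these letters and does not show that a factor binds there.
Nfkbia chr12:55492648-55492716 (-): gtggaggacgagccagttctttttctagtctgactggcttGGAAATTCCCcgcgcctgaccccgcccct
Tnfaip3 chr10:19015486-19015547 (-): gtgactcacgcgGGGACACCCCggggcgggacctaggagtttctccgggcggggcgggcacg
Tnfaip3 chr10:19015411-19015462 (-): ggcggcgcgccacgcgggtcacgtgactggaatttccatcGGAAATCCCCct
Nfkbid chr7:30422156-30422229 (+): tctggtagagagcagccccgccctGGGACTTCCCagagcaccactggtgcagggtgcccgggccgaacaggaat
Nfkbid chr7:30422185-30422274 (+): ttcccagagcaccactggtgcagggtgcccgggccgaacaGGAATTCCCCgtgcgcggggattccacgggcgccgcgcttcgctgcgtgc
Rel chr11:23771011-23771101 (-): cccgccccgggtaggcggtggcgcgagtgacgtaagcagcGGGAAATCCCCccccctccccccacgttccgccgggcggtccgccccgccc
Nfkb2 chr19:46304688-46304717 (+): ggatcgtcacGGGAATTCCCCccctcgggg
Nfkb2 chr19:46304716-46304745 (+): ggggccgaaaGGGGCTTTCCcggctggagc
Nfkb2 chr19:46305449-46305478 (+): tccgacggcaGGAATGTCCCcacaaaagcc
Nfkb2 chr19:46305695-46305724 (+): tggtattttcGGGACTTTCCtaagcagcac
Bcl3 chr7:19822734-19822763 (-): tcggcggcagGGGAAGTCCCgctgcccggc
The first base of the match lay 29 bases before the start site in Nfkbia and 92 bases before it in Rel. In Tnfaip3 the matches lay 125 and 12 bases before the start site of 1 window, and its other window had no match. In Nfkbid they lay 226 and 181 bases before the start of 1 of its 3 windows. The Tnfaip3 and Nfkbid matches lie inside the gene spans printed below, which come from another annotation. The Bcl3 match began 3 bases after the start.

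Nfkbia encodes IkB alpha, the classical inhibitor that is destroyed on activation and then made again. The gene lies on GRCm38 chr12:55489410-55492647, minus strand. It was the most abundant of the 9 genes at 1355 CPM (UMIs scaled to a common library total, interval 1340 to 1370) in medial and 1236 CPM (1222 to 1251) in lateral cells. UMIs from 3′ tags count a molecule once whatever its length, so levels are compared between genes without division by length. The medial level was 1.10-fold the lateral one, a log2 ratio of 0.13 (0.11 to 0.16). Nfkbia supplied 44.4% of the UMIs of the 9 genes in medial and 47.0% in lateral cells, and a UMI was seen in 2077 of the 2131 medial and 2214 of the 2308 lateral cells.

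3 further genes encode atypical, mostly nuclear IkB proteins. Nfkbiz (IkB zeta, which promotes transcription of secondary response genes such as Il6; chr16:55811375-55838899, minus strand) was the second most abundant gene. It stood at 772 CPM (761 to 783) in medial and 613 CPM (603 to 624) in lateral cells, a log2 ratio of 0.33 (0.30 to 0.36). Nfkbid (IkB NS; chr7:30421732-30428746, plus strand) stood at 150 CPM in medial and 117 CPM in lateral cells, a log2 ratio of 0.35 (0.28 to 0.43). Bcl3, which binds homodimers of the p50 and p52 subunits (chr7:19808462-19822770, minus strand), stood at 44.1 CPM in medial and 45.8 CPM in lateral cells. Its log2 ratio was -0.06 (-0.18 to 0.07), and it was the only one of the 9 whose interval held equal levels. Bcl3 overlaps Gm16175 and Gm16174 on the other strand, which had 0 and at most 23 UMIs in either library.

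Tnfaip3 encodes A20, the ubiquitin-editing enzyme that ends signalling upstream of the IkB kinase (chr10:19000910-19015657, minus strand). It stood at 204 CPM (198 to 209) in medial and 186 CPM (181 to 192) in lateral cells. The log2 ratio was 0.13 (0.07 to 0.19), close to that of Nfkbia. Single medial cells held up to 34 Tnfaip3 UMIs and single lateral cells up to 36, against means of 2.24 and 1.86 per cell.

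The 4 subunit genes were less abundant than Nfkbia and Nfkbiz. Nfkb1, whose product p105 is cut to p50 (chr3:135584655-135691547, minus strand), stood at 217 CPM (211 to 223) in medial and 169 CPM (164 to 175) in lateral cells. Its log2 ratio was 0.36 (0.30 to 0.42). Rel encodes c-Rel, a subunit with a transactivation domain found mostly in blood-derived cells (chr11:23736847-23770970, minus strand). Rel stood at 211 CPM in medial and 176 CPM in lateral cells, a log2 ratio of 0.26 (0.20 to 0.32). Relb, the partner of p52 in the non-canonical pathway (chr7:19606217-19629438, minus strand), stood at 58.1 CPM and 52.3 CPM, a log2 ratio of 0.15 (0.04 to 0.27). Nfkb2, whose product p100 is cut to p52 (chr19:46304320-46312385, plus strand), was the least abundant at 42.0 CPM (39.4 to 44.7) and 32.2 CPM (29.9 to 34.6), a log2 ratio of 0.38 (0.25 to 0.52). Nfkb2 overlaps Psd on the other strand, which had 49 medial and 38 lateral UMIs against 984 and 741 for Nfkb2, and Nfkb1 overlaps the gene model Gm43430 on its own strand.

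Among the 5 Rel family genes, Nfkb1 and Rel together led the subunit transcripts in both libraries. Nfkb1 made up 35.5% of the family's UMIs in medial and 33.7% in lateral cells, and Rel 34.4% and 35.0%. Rela, which encodes the p65 subunit and is not among the 9, made up 13.8% and 14.4%. Relb made up 9.48% and 10.4%, and Nfkb2 6.85% and 6.41%. From the most to the least abundant of the 9, the medial order was Nfkbia, Nfkbiz, Nfkb1, Rel, Tnfaip3, Nfkbid, Relb, Bcl3 and Nfkb2. In the lateral library Tnfaip3 (interval 181 to 192 CPM) stood before Rel (170 to 181 CPM) and Nfkb1 (164 to 175 CPM), and the intervals of Rel and Nfkb1 overlapped. In the medial library the intervals of Nfkb1, Rel and Tnfaip3 overlapped from 1 neighbour to the next, as did those of Bcl3 and Nfkb2.

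**Figure D1:**
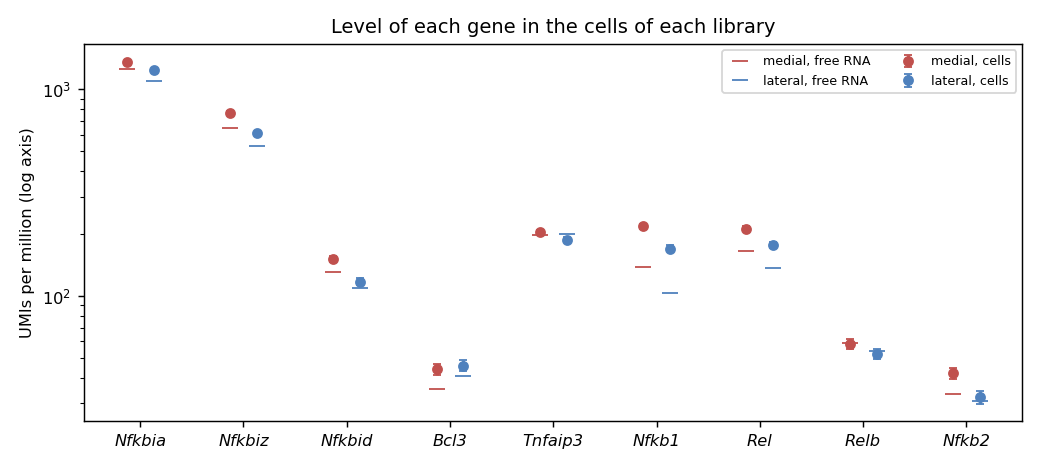
CPM (log axis) of each of the 9 genes in the cells of the medial and lateral libraries (points, 1 library each; bars are exact 95% Poisson intervals), with the level in barcodes of at most 50 UMIs as short lines. Nfkbia is highest at 1355 and 1236 CPM and Nfkb2 lowest at 42.0 and 32.2 CPM.

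At a fold of 1.2, Nfkbiz, Nfkbid, Nfkb1, Nfkb2 and Rel were higher in the medial library, 5 of the 9, and none was lower. Over all 9830 genes with at least 100 UMIs, 7.39% were higher and 7.50% lower by that fold. Rel stood at the fold itself, at 211 against 176 CPM. The largest ratio was 1.31, in Nfkb2. The whole counting interval lay above equal levels for 8 of the 9, against 11.1% of all genes, and below it for none, against 18.1%. These shares are not compared at like counts, because intervals widen as UMIs fall. The genes compared start at 100 UMIs, while the sparsest of the 9, Nfkb2, had 984 medial and 741 lateral UMIs. The median log2 ratio of the 9 was 0.26, against -0.04 over all genes, whose central 95% ran from -0.40 to 0.47. All 9 ratios lay within that range. Summed, the 9 genes made 3052 CPM (3030 to 3075) in medial and 2628 CPM (2607 to 2649) in lateral cells, a log2 ratio of 0.22 (0.20 to 0.23), and 0.29 without Nfkbia. At a fold of 1.5 none of the 9 was higher, against 1.52% of all genes. Because the 9 were chosen with earlier results of these data known, these counts describe them and are no independent support.

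The share of cells with a UMI depends on depth, so each cell was also thinned to 3869 UMIs, which left out 131 medial and 231 lateral cells that were shallower. After thinning, Nfkbia was seen in 93.1% of medial and 1910 of the 2077 lateral cells, and Nfkbiz in 85.3% (83.7% to 86.9%) and 77.7% (75.9% to 79.5%). Nfkb1 was seen in 54.3% (52.1% to 56.5%) of medial and 45.4% (43.2% to 47.6%) of lateral cells, against 82.8% and 71.4% before thinning. Tnfaip3 was seen in 42.0% and 40.9%, and its intervals overlapped. Nfkb2 was seen in 15.1% and 11.9%, and Bcl3 in 15.1% and 17.1%. At least 5 of the 9 genes were seen in 41.0% of medial and 32.0% of lateral thinned cells, and the median was 4 in both.

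The cells were not divided into classes, so no class that lacks these genes was at hand to set a background share. Barcodes of at most 50 UMIs, which carry free RNA, held the 9 genes at 2657 CPM in the medial and 2294 CPM in the lateral library, close to the levels in cells. Nfkb1 lay furthest below its level in cells there: 138 CPM in free RNA against 217 CPM in medial cells, and 103 CPM against 169 CPM in lateral cells. Tnfaip3 was at 197 and 198 CPM in free RNA, against 204 and 186 CPM in cells.

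The spread over cells, taken as variance over mean, separated Nfkbia, Nfkbiz and Tnfaip3 from the subunits. The variance of thinned UMIs over their mean is 1 for counting noise alone and grows with the mean where cells differ. It was 3.38 in medial and 3.42 in lateral cells for Nfkbia, 1.92 and 1.91 for Tnfaip3, and 1.98 and 2.16 for Nfkbiz. It was 1.22 and 1.18 for Nfkb1, 1.32 and 1.33 for Rel, and 1.05 and 1.01 for Nfkb2. Nfkbid, at 1.41 in both libraries, lay above Nfkb1 although its mean was lower, 0.542 against 0.858 UMIs in medial cells. The uppermost 10% of cells by Tnfaip3 held 47.9% of its medial and 47.5% of its lateral thinned UMIs, against 35.3% and 38.9% for Nfkb1. That share was higher still for the sparser genes Nfkb2 (69.6% and 85.3%), Relb (56.1% and 63.2%) and Bcl3 (69.7% and 63.4%). It therefore does not separate the IkB and A20 genes from the subunits.

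Across the thinned cells of each library, Pearson's r of log UMIs described how the 9 genes varied together. The cells of a library share 1 preparation, all had 3869 UMIs, and no p is given. Nfkbia and Tnfaip3 had the highest r of the 36 pairs, 0.39 over 2000 medial and 0.36 over 2077 lateral cells. Nfkbia and Nfkbiz had 0.32 and 0.31, and Nfkbid had between 0.20 and 0.25 with each of Nfkbia, Nfkbiz and Tnfaip3. Pairs that joined a subunit gene with another of the 9 reached at most 0.18 in medial cells, and 0.21 in lateral cells (Rel with Nfkbiz). Bcl3 had no r above 0.04 in either library. Values this low in sparse counts are no finding, and a low r for a gene at about 0.2 UMIs per cell does not show that it varied independently.

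**Figure D2:**
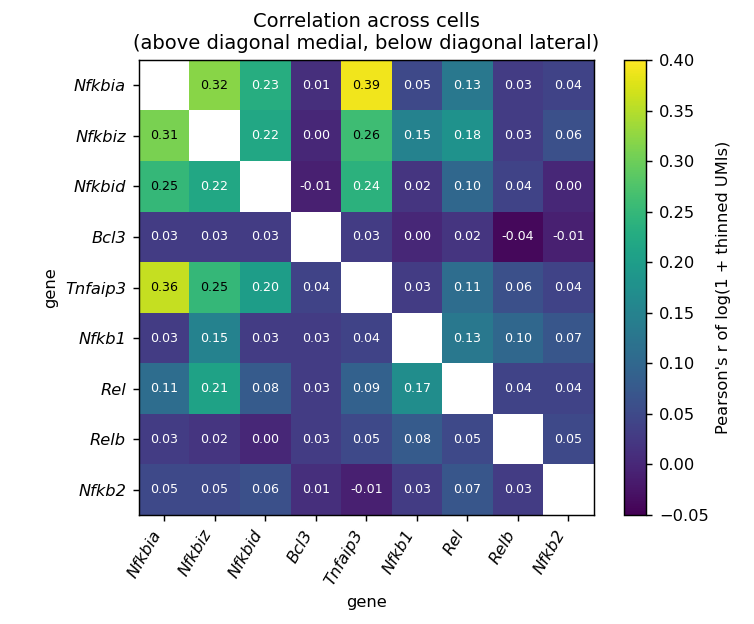
Pearson's r of log(1 + thinned UMIs) between the 9 genes across 2000 medial cells (above the diagonal) and 2077 lateral cells (below it). Nfkbia, Nfkbiz, Nfkbid and Tnfaip3 have r between 0.20 and 0.39 with each other.

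The genes most like each of the 9 were ranked by the lower r of the 2 libraries, among 5815 genes seen in at least 5% of thinned cells in both, and are named where that r was at least 0.2. For Nfkbia they were Junb (0.41), Ier2 (0.39) and Tnf (0.37), and for Tnfaip3 Fos (0.44), Junb (0.44) and Ier2 (0.40). For Nfkbid they were Fos (0.28), Jun (0.27) and Egr1 (0.27). Fos, Jun, Junb, Egr1 and Ier2 are immediate early genes, transcribed within minutes of many stimuli. Nfkbiz differed in its list from Nfkbia, Tnfaip3 and Nfkbid. It was most like the chemokine Ccl4 (0.34), the cytokine Il1a (0.33) and Marcksl1 (0.33), and that difference was not tested. For Rel they were Cd83 (0.22) and Btg1 (0.21). No gene reached 0.2 with Nfkb1, Nfkb2, Relb or Bcl3. In Nfkb1 the highest was Cd83, at 0.18.

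Cells were next ranged by the thinned UMIs they held of a panel of immediate early genes and of a panel of NF-kB target genes, neither of which contains any of the 9. The uppermost 20% of the cells of both libraries together held at least 36 immediate early UMIs, a range of a score and not a cell type, and 75 medial and 49 lateral cells lay within 1 UMI of that limit. The upper cells also held more target UMIs, with a median of 74 against 35 in the other medial cells and 70 against 30 in the lateral ones. Tnfaip3 averaged 1.64 UMIs in the upper and 0.446 in the other medial cells, a log2 difference of 1.88 (1.73 to 2.03). In lateral cells it averaged 2.05 and 0.461, a log2 difference of 2.15 (2.00 to 2.30). For Nfkbid the log2 difference was 1.37 in medial and 1.45 in lateral cells, for Nfkbia 0.99 and 1.17, and for Nfkbiz 0.72 and 0.80. The subunit genes differed less: Rel by 0.51 and 0.45, Nfkb1 by 0.21 and 0.43, Nfkb2 by 0.53 and 0.15, and Relb by 0.65 and 0.17. For Nfkb2 and Relb the lateral intervals held 0.

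Over the target panel the upper cells held at least 65 UMIs. The order of Tnfaip3, Nfkbid, Nfkbia and Nfkbiz was alike in both libraries, with Tnfaip3 at 1.82 and 1.82 and Nfkbid at 1.16 and 1.45. Nfkbiz then stood beside Nfkbia, at 0.92 against 0.93 in medial and 1.04 against 1.12 in lateral cells. Bcl3 went against the other genes in medial cells, at -0.57 (-0.99 to -0.18) over the immediate early and -0.42 (-0.83 to -0.03) over the target panel. In lateral cells it stood at 0.42 (0.05 to 0.77) and 0.05 (-0.36 to 0.43), and the medial value rests on 64 and 67 UMIs in the upper cells.

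Other panels separated Nfkbia, Nfkbiz, Nfkbid and Tnfaip3 less. For the subunit genes some differences were as large as over the immediate early panel or larger. In the uppermost 20% of cells by interferon response genes the 9 genes summed to a log2 difference of -0.10 in medial and -0.20 in lateral cells. In the uppermost 20% by homeostatic microglial genes, Rel was lower by a log2 difference of -0.42 (-0.63 to -0.22) in medial and -0.65 (-0.86 to -0.45) in lateral cells, and Nfkb1 by -0.28 and -0.44. Tnfaip3 stood at 0.07 and 0.13 in the same cells. In the uppermost cells by cell cycle genes, Rel stood at -0.35 and -0.28 and Relb at -0.89 (-1.32 to -0.49) and -0.27 (-0.62 to 0.07). The limit there was 4 UMIs, and with ties the upper cells were 20.3% of medial and 25.9% of lateral cells. Within 1 UMI of that limit lay 308 medial and 316 lateral cells. In cells that were deepest before thinning, Nfkb1 stood at -0.36 and -0.51 and Rel at -0.37 and -0.35, while Nfkbia stood at 0.28 and 0.22 and Tnfaip3 at 0.27 and 0.41. Depth thus moved with Nfkbia and Tnfaip3 in the opposite direction to Nfkb1 and Rel, and its part in the panel differences was not tested.

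**Figure D3:**
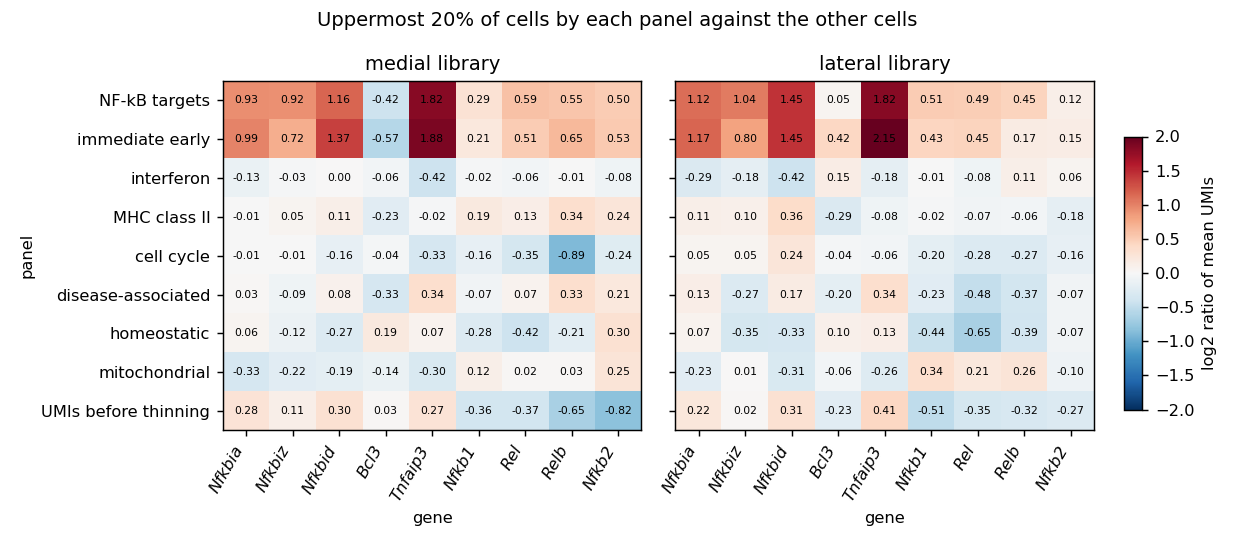
Log2 ratio of mean thinned UMIs in the uppermost 20% of cells over the other cells, for each panel (rows) and each of the 9 genes (columns), in the medial and lateral libraries. Tnfaip3 over the immediate early panel is highest, at 1.88 and 2.15. For the MHC class II and cell cycle panels the limit was 4 UMIs, and ties put more than 20% of the cells in the upper group.

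The cells rich in immediate early UMIs were a larger share of the medial library, 25.9% of thinned cells against 15.9% in the lateral library, and those rich in target UMIs 24.9% against 15.5%. Immediate early genes also respond to tissue dissociation, and the part of dissociation was not tested. The regional ratios of the 9 genes were therefore also taken within 5 ranges of immediate early UMIs, each with about 20% of the cells, a choice made after seeing the data. Within the ranges, from the lowest to the uppermost, the summed log2 ratio of the 9 genes was 0.06, 0.07, 0.09, -0.03 and -0.03. Weighted over the ranges it was 0.02, against 0.20 over the same thinned cells without weights.

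The genes differed in this. Tnfaip3 had log2 ratios from -0.05 (-0.34 to 0.25) in the middle range to -0.32 (-0.46 to -0.17) in the uppermost. The interval lay below equal levels in the uppermost range and held equal levels in the other 4. Its weighted log2 ratio was -0.25, against 0.08 over the thinned cells without weights. Nfkbia ran from -0.14 to 0.07 and was -0.07 when weighted, against 0.12. Its intervals lay below equal levels in the uppermost range (-0.19 to -0.06) and the one below it (-0.22 to -0.05), and held equal levels in the lower ranges. Nfkb1 had log2 ratios between 0.15 and 0.49. Its intervals lay above equal levels in the middle range (0.26 to 0.73) and the next (0.11 to 0.53) and held equal levels in the other 3, and its weighted ratio was 0.27, against 0.37. Nfkbiz ran from 0.03 to 0.33, with intervals above equal levels in the lowest, middle and uppermost ranges and holding them in the other 2, and weighted to 0.14 against 0.29. Nfkb2 weighted to 0.29 against 0.38, with ratios from -0.24 to 0.67 and wide intervals. Nfkbid ran from -0.08 to 0.27, with intervals that held equal levels in every range, and weighted to 0.11 against 0.34. Rel ran from 0.02 to 0.23 and weighted to 0.11 against 0.24. Relb ran from -0.28 to 0.57 and weighted to 0.17 against 0.26. For Rel (0.02 to 0.44) and Relb (0.16 to 0.99) only the uppermost range had an interval above equal levels. Bcl3 stood at -0.99 (-1.48 to -0.50) in the uppermost range and at 0.57 (0.09 to 1.06) in the range below it. In the lower ranges its intervals held equal levels. The uppermost value rests on 64 medial and 81 lateral UMIs, and Bcl3 weighted to -0.23 against -0.20. In the thinned cells 4 of the 9 were at or above 1.2-fold, against 8.60% of 7865 genes with at least 100 thinned UMIs. After weighting these were 2, Nfkb1 and Nfkb2, against 7.21% of the same genes.

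**Figure D4:**
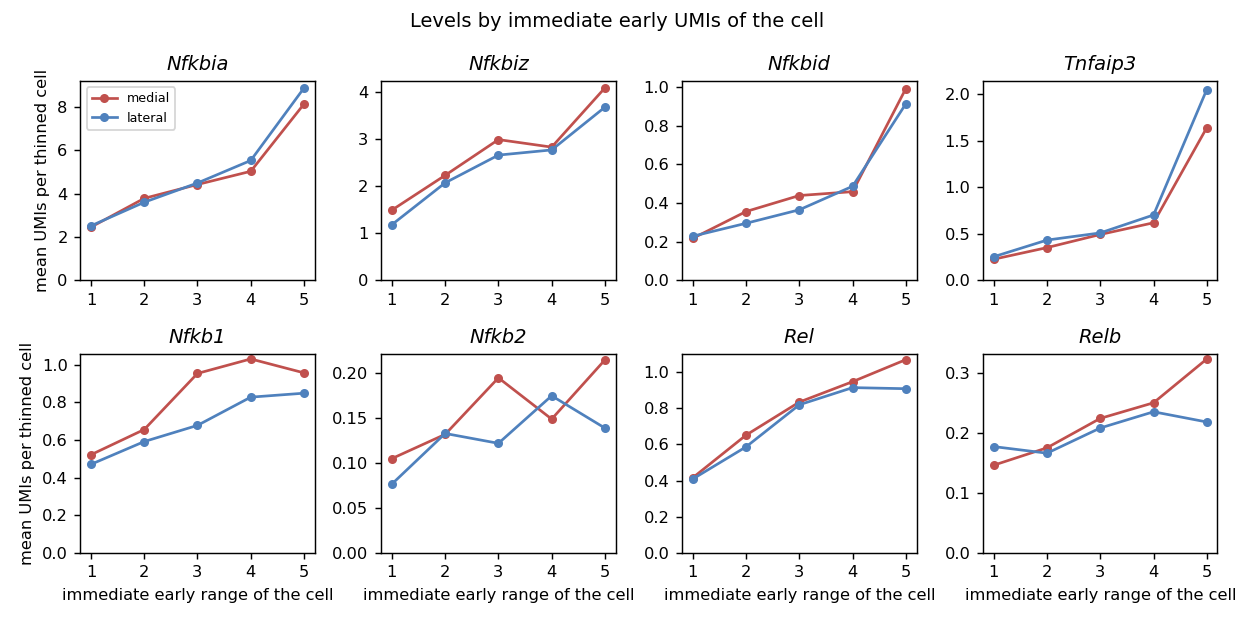
Mean thinned UMIs per cell (vertical axes start at 0) of 8 of the 9 genes (all but Bcl3) against the range of immediate early UMIs of the cell (1 lowest, 5 uppermost), in medial and lateral cells. Tnfaip3 reaches 1.64 medial and 2.05 lateral UMIs in the uppermost range, and the medial lines of Nfkb1, Nfkbiz and Rel lie above the lateral ones throughout. For Rel the counting interval of the ratio lies above equal levels in the uppermost range only. For Nfkb1 and Nfkbiz it holds equal levels in some of the ranges.

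**Figure D5:**
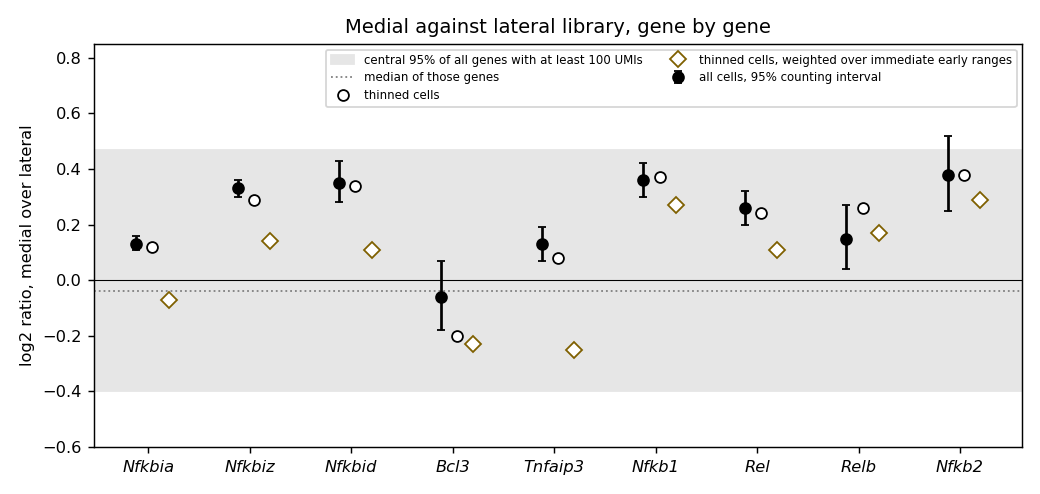
Log2 ratio, medial over lateral, of each of the 9 genes over all cells (filled, with exact 95% counting intervals), over thinned cells (open circles) and over thinned cells weighted by ranges of the immediate early panel (open diamonds), on the central 95% of 9830 genes (-0.40 to 0.47). In thinned cells weighting moves Tnfaip3 from 0.08 to -0.25 and Nfkb1 from 0.37 to 0.27.

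The genes around the 9 in the pathway were read from lists chosen by function. By the fold of 1.2, 7.39% of all genes were higher and 7.50% lower, and counts in the short lists below are to be read against these shares. Of 6 further genes that encode Rel or IkB proteins or act on them, 1 was higher in the medial library and none lower, with a median log2 ratio of 0.11. Nfkbib, which encodes IkB beta, was the one that was higher, at 149 against 118 CPM and 0.34 (0.27 to 0.41). Rela stood at 0.23 (0.13 to 0.32), and Nfkbie, which encodes IkB epsilon, at -0.11 (-0.24 to 0.02). Commd1, which promotes loss of p65, was the lowest, at -0.21. Of 27 kinase and adaptor genes, 3 were higher and 1 lower, near the shares over all genes, with a median of 0.05. The adaptor Traf1 (5.63 against 3.47 CPM, log2 ratio 0.70) and the kinase Ikbke (6.83 against 4.34 CPM, 0.65) were highest, both from low counts, and the lowest were Tab1 (-0.38) and Tradd (-0.17). Map3k8, the kinase held by p105, was the most abundant, at 93.1 and 91.1 CPM.

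Of 18 genes of ubiquitin editing and feedback around Tnfaip3, 2 were higher and none lower, with a median of 0.11. Tnip3, a binding partner of A20, stood at 0.48 (-0.05 to 1.01), an interval that held equal levels. Usp18, which was also counted in the interferon response list, stood at 0.35 (0.14 to 0.57). Cyld, a deubiquitinase of the pathway, stood at -0.07 and Rbck1, a part of the linear ubiquitin ligase, at -0.21. Zc3h12a, an RNase that degrades cytokine transcripts, was the most abundant at 140 and 126 CPM. Of 17 listed receptor genes 14 had at least 100 UMIs, among which only Tlr6 passed the fold (0.32, 0.00 to 0.63) and none was lower. The abundant Cd14 and Tlr2 stood at 0.11 and 0.15, and Tnfrsf11a and Ltbr at -0.18 and -0.10.

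Of 35 NF-kB target genes, 18 were higher in the medial library and 1 lower, with a median log2 ratio of 0.29. The adhesion molecule Vcam1 (23.8 against 12.1 CPM, 0.97) and the chemokine Cxcl2 (802 against 482 CPM, 0.73) were highest. Cd83, the most abundant, differed little at 2225 and 2129 CPM (0.06). Irf1 (-0.29, -0.39 to -0.18) was the gene that was lower by the fold, and Tnfsf9 stood at -0.26. Of 19 immediate early genes, 15 were higher and 1 lower, with a median of 0.40. Medians above that of all genes, -0.04, were not confined to NF-kB genes: the interferon response list stood at 0.23, with 8 of 20 higher and 1 lower, and the MHC class II list at 0.23, with 2 of 6 higher. None of these differences between lists was tested, and the lists were chosen with earlier results of these data known.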

How the data were processed

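The medial and lateral libraries were measured by 3′ droplet RNA-seq, and the authors' deposited values are whole-number UMI counts per gene and barcode, with no normalisation and with barcodes that hold no cell. Per the submitters' processing notes, reads were processed with STAR in Cell Ranger 2.0.1 on mm10; no gene annotation is named in the sources used here. The 56 symbols with more than 1 gene ID were summed. Cells (at least 2400 UMIs, at most 10% mitochondrial, which removed 3 barcodes per library) held 81.8% of medial and 82.4% of lateral UMIs. No doublet caller was used; an alternative left out the 5% deepest cells.

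CPM, ratios and exact intervals (Poisson, conditional binomial and Clopper-Pearson, 95%) were computed in Python 3.11.15 with numpy 2.4.6, scipy 1.17.1 and pandas 2.3.3, and the interval code was tested on simulated data. Each cell was thinned once to 3869 UMIs. Gene positions are from GENCODE on GRCm38. A gene was called at a fold of 1.2 among genes with at least 100 UMIs. Named were all 9 members, the 2 highest, 2 lowest and most abundant genes of each pathway list, and the 3 genes most like each member where the lower r was at least 0.2; others are named as examples seen in the data. The members and lists were chosen with earlier results of these data known. Alternatives changed the cell limits, weighting, depth, scaling, free RNA and the cells included.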

Additional observations from a re-analysis of the deposited data

Results flagged for a closer look

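Barcodes with at least 500 UMIs and fewer than 2400, which were too shallow to count as cells, held more Nfkb1 than the cells did. In the 254 medial barcodes of this kind Nfkb1 stood at 431 CPM (359 to 513), 1.98-fold its level in cells, and in the 252 lateral ones at 224 CPM (173 to 285), 1.32-fold. Nfkb1 was seen in 33.9% and 19.0% of them, with at most 4 UMIs in any 1 barcode. The same barcodes held less Nfkbia than cells, by log2 differences of -0.65 and -0.41. Nfkbiz was lower there too, at 366 against 772 CPM in the medial and 427 against 613 CPM in the lateral library. Nfkbid, Tnfaip3 and Bcl3 also stood lower in both. Rel, Relb and Nfkb2 stood higher in both, with intervals that held the level in cells. The barcodes held more Malat1, a nuclear RNA, at 11683 against 5215 CPM in the medial and 8012 against 4647 CPM in the lateral library. Their median mitochondrial share was 1.92% and 2.40%. What these barcodes are was not tested.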

How the results depend on the processing

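No paired analysis was possible because each region has a single library. The summed log2 ratio of 0.22 was 0.20 with each cell counted alike or thinned to 1 depth, and 0.25 when scaled by the median ratio of genes. Without the 20% of cells with most immediate early UMIs it was 0.16, with a median over the 9 genes of 0.20 in place of 0.26 and 3 genes in place of 5 past the fold of 1.2. Without the 20% with most target UMIs it was 0.15, with 2 genes past the fold, and Tnfaip3 stood at -0.06. Weighted over 5 ranges of the immediate early panel, chosen after seeing the data, the sum was 0.02, the median 0.11 and the count 2, with Nfkbia at -0.07 and Tnfaip3 at -0.25; the cause was not tested. At a fold of 1.5 the count was 0, and 8 genes had a whole interval above equal levels. With genes of at least 30 UMIs, 10.5% of all genes passed 1.2-fold, against 7.39%. Over 10 other settings, leaving out this weighting, Nfkb1 ranged from 0.34 to 0.40, Nfkbiz from 0.26 to 0.37 and Relb from 0.06 to 0.26. Genes near 0.2 UMIs per thinned cell (Nfkb2, Relb, Bcl3) are limited by depth, and library and region cannot be told apart.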
